A study of Mus musculus with 2 samples.

Results

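Insulin-like growth factors, their receptor and their binding proteins were followed across the cell types of ulcerated mouse skin. The genes were Igf1, Igf2, Igf1r, Igfbp2, Igfbp3, Igfbp4, Igfbp5, Igfbp6 and Igfbp7. They were found by symbol in the deposited gene lists, where all 9 occur among 33696 genes. The data were 2 single-cell libraries, 1 per genotype. The labels give the skin of one as wild type and that of the other as whole-body overexpression of Has2, a hyaluronan synthase. In both, lesional skin was made by tape stripping, 40 to 50 times a day on 15 consecutive days, to mimic scratching. The treatment label opens in mid-sentence, so an earlier step may be missing from it. The promoter of the transgene and the strain and age of the mice are not given in the sources used here, nor is the number of mice per sample. With 1 library for each genotype, genotype, animal and library cannot be told apart. All intervals below are 95% intervals that cover counting error only, and no difference was tested against replicates.

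Igf1 and Igf2 are secreted growth factors that act on cells through the receptor tyrosine kinase Igf1r, a relative of the insulin receptor. Binding proteins in the tissue fluid hold these ligands, prolong their life and keep them from the receptor, and proteases that cut the binding proteins set the ligands free. In skin, fibroblasts and tissue macrophages are known sources of Igf1, and the pathway takes part in wound repair and hair growth.

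The libraries held 16999 (wild type) and 14622 (Has2-labelled) barcodes with 143875454 and 134917708 UMIs, where a UMI marks 1 captured RNA molecule. After filters on genes, mitochondrial UMIs and likely doublets, 15682 and 13563 cells were kept, with median depths of 4168.5 and 4157 UMIs. The libraries shared 79 barcode sequences. Cells were put into classes by marker genes, and 5 classes had at least 100 cells in each library: fibroblasts (2237 wild type and 2315 Has2-labelled cells), macrophages or monocytes (4774 and 4208), neutrophils (6478 and 5392), T cells (241 and 141) and endothelial cells (222 and 195). In each of the 5 classes every marker was detected and was higher than in the remaining cells of its library. The same markers had set the classes, so this follows from the assignment and is not an independent check. Has2 itself was not uniformly higher in the library labelled Has2-overexpressing. In UMIs of the gene per 1000000 UMIs of the cells considered (CPM), it stood at 73.2 and 85.8 over all kept cells, at 189 and 146 in fibroblasts, and at 172 and 328 in keratinocytes. The label is therefore used as a name for that library. The molecule label also differs, being total RNA for the wild type and polyA RNA for the other library, although the kit protocol is the same.

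Levels are given as CPM of the class, and a ratio is the level in the Has2-labelled library over that in wild type. A gene with at least 100 UMIs in a class over both libraries was counted as higher at a ratio of at least 2 and as lower at a ratio of at most 0.5. In fibroblasts 8 of the 9 genes had enough UMIs, and 3 were counted as higher (Igfbp2, Igfbp4 and Igfbp5) and 0 as lower, beside 6.3% and 1.43% of all 12966 genes. Of 5 genes measured in macrophages, Igf1 was counted as higher and Igfbp6 and Igfbp7 as lower, beside 4.51% and 1.24% of 11197 genes. In neutrophils 0 of 4 genes reached either limit (2.89% and 3.11% of 7273 genes did). The same was true of the 1 gene measured in T cells (1.63% and 1.11% of 2892 genes) and of the 4 measured in endothelial cells (2.4% and 0.709% of 7757 genes). The median log2 ratio of the 8 genes in fibroblasts was 0.84, beside -0.06 for all genes, with 6 higher and 2 lower, and Igf2 was the gene not measured there. The fibroblasts of the 2 libraries were spread differently over the clusters. Most Has2-labelled fibroblasts lay in clusters with few wild-type cells, while the others shared clusters with wild-type fibroblasts. Without 2 clusters that came almost wholly from the Has2-labelled library, described below, Igf1, Igfbp4 and Igfbp6 had ratios of 0.554, 0.778 and 0.681, the opposite direction, and Igfbp2 had only 2 and 6 UMIs. In the same fibroblasts the summed level of the 8 fibroblast markers was 21127 and 54447 CPM and that of the 8 neutrophil markers 855 and 419 CPM, with no marker at 0, and their part in the ratios was not tested.

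**Figure D1:**
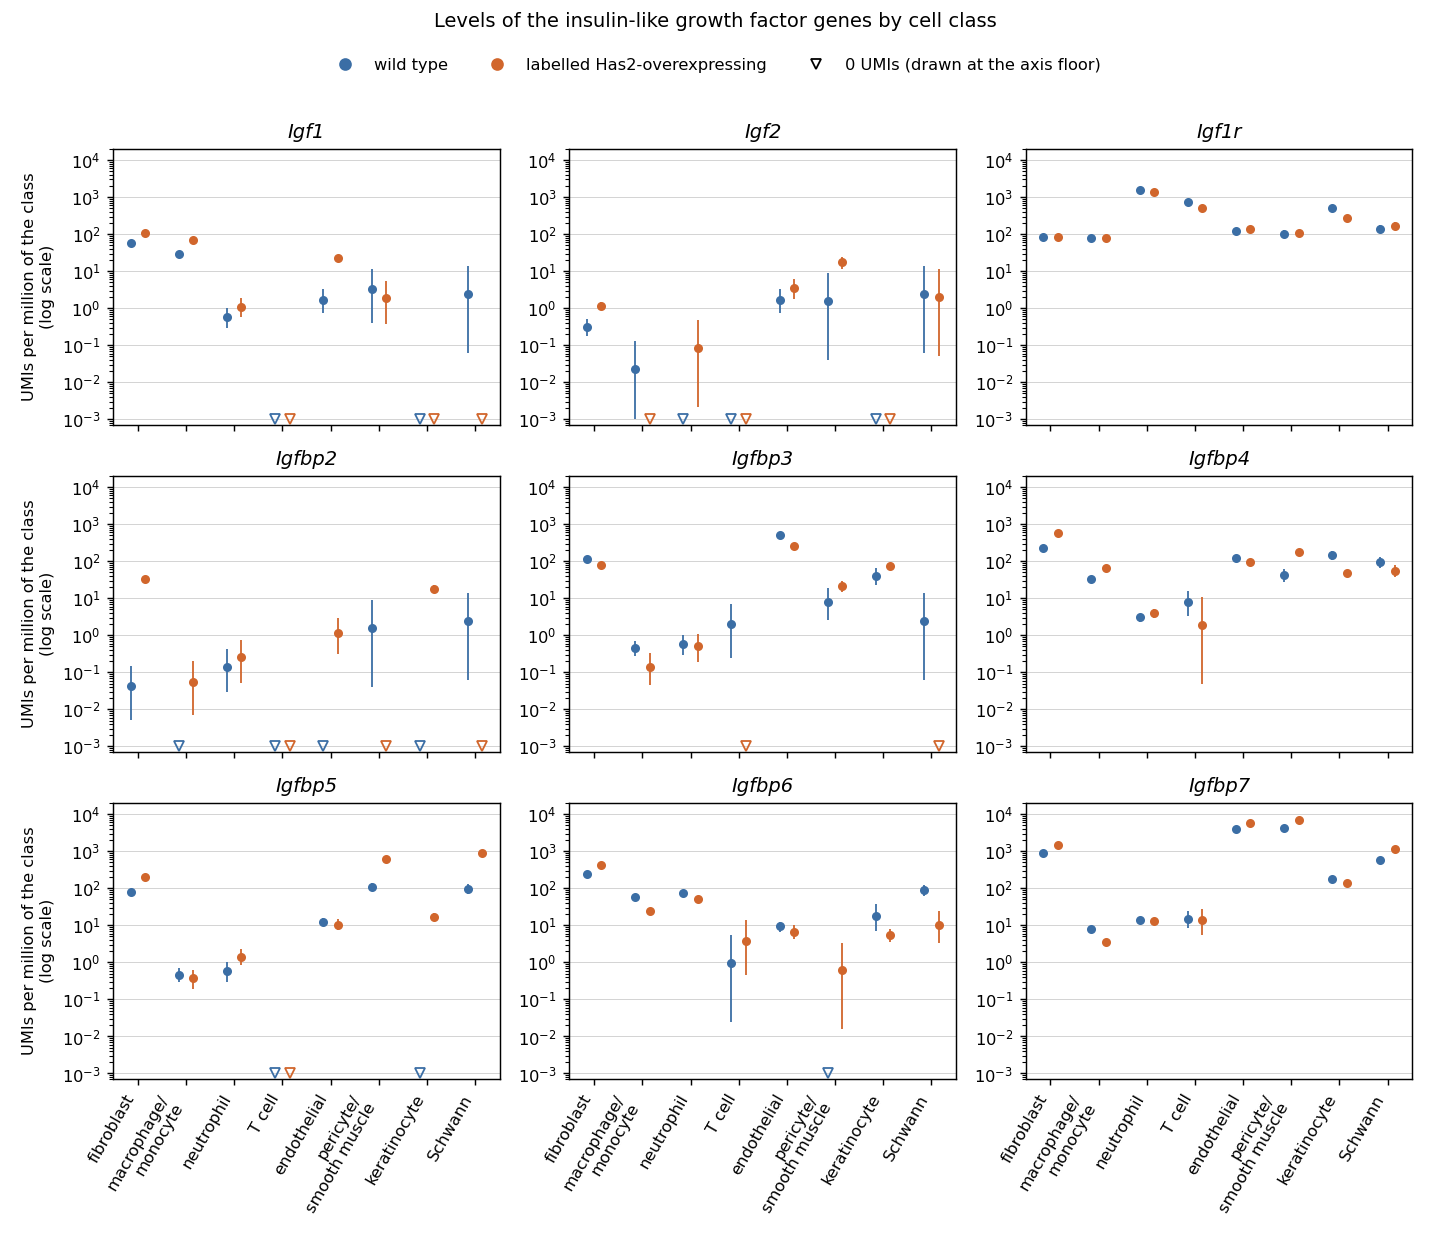
Level of each gene (CPM, log scale) in 8 cell classes of the wild-type and Has2-labelled libraries, with exact Poisson 95% intervals; open triangles mark 0 UMIs. Igf1r is highest in neutrophils in both libraries, Igfbp7 in endothelial cells and pericytes, and the highest Igfbp2 levels are in Has2-labelled fibroblasts (33.7) and keratinocytes (17.9).

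**Figure D2:**
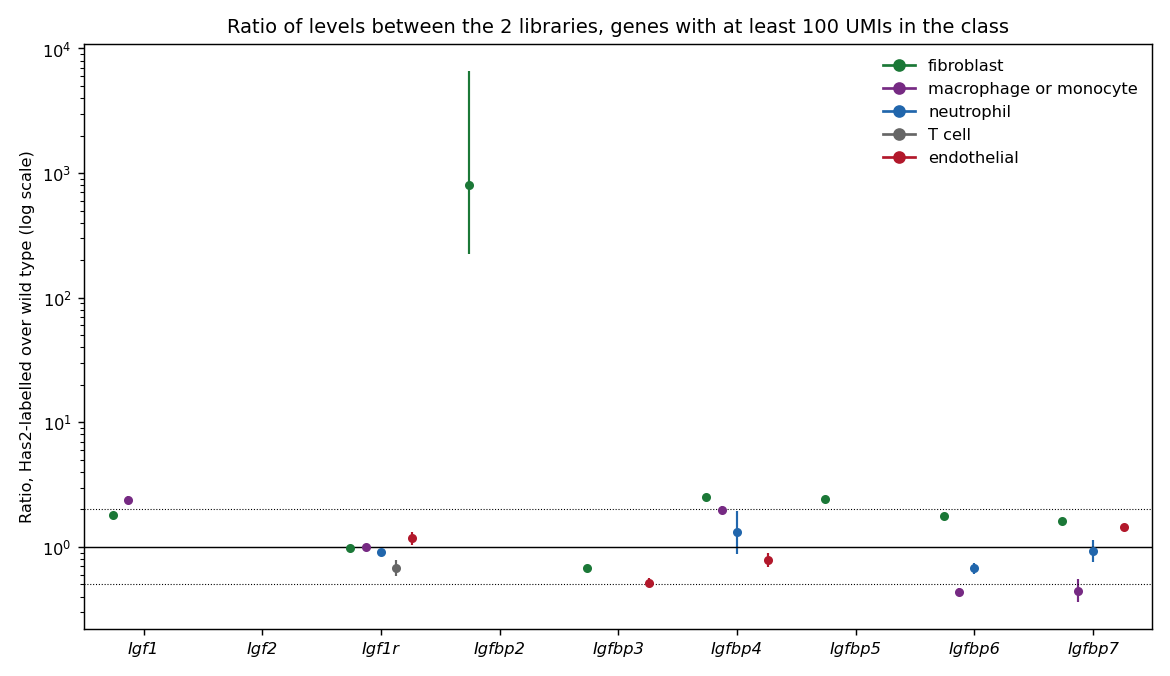
Ratio of the level in the Has2-labelled library over wild type (log scale) for genes with at least 100 UMIs in the class, coloured by class, with exact 95% intervals; dotted lines mark ratios of 2 and 0.5. The ratio of Igfbp2 in fibroblasts, 805, lies far above all others, and Igfbp6 and Igfbp7 lie on opposite sides of 1 in fibroblasts and macrophages.

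Igf1 was measured mainly in fibroblasts and macrophages, which held 68.1% and 30.3% of its UMIs in the wild-type library and 70.8% and 27.9% in the other. In fibroblasts its level was 59.4 CPM in wild type (2837 UMIs) and 107 CPM in the Has2-labelled library (6332 UMIs), a ratio of 1.81 (1.73 to 1.89). The share of fibroblasts with an Igf1 UMI was 27.8% and 42.5%, and 5.27% and 7.998% after every cell was thinned to 1000 UMIs. Fibroblast depth differed, with medians of 17456 and 24754 UMIs. In T cells, which are not a known source, 0 of 241 and 0 of 141 cells had an Igf1 UMI, at median depths of 3840 and 3263 UMIs, which allows shares of up to 1.24% and 2.13%. Fibroblasts were thus above that background in both libraries.

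The higher Igf1 level of the class was not present in the fibroblasts that both libraries shared. Cells were also clustered without the 9 genes and Has2, and 2 fibroblast clusters drew over 90% of their cells from the Has2-labelled library. One was led by Tnn and Spp1 (24 wild-type and 645 Has2-labelled cells) and the other by Clec3b and Sfrp2 (20 and 976 cells). A cluster taken mostly from 1 library may be that library and not a cell type. In the Has2-labelled library these clusters had Igf1 at 140 and 127 CPM. Without them, in an analysis added after the data were seen, 2194 and 694 fibroblasts were left and Igf1 was 58.7 and 32.5 CPM, a ratio of 0.554 (0.502 to 0.610). The direction was therefore opposite to that of the whole class. Within single clusters the Has2-labelled level was the lower one in 4 of 5, but not always beyond counting error. The intervals overlapped in the cluster led by S100a9 and S100a8 (50.3 and 39.7 CPM, 92 and 25 UMIs). They also overlapped in the Clec3b and Sfrp2 cluster, with 20 wild-type cells (160 and 127 CPM). The Tnn and Spp1 cluster, where the Has2-labelled level was higher, had 2 wild-type Igf1 UMIs.

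In macrophages or monocytes Igf1 was 29.6 CPM in wild type (1264 UMIs) and 70.7 CPM in the Has2-labelled library (2496 UMIs), a ratio of 2.38 (2.23 to 2.55). With each cell thinned to 1000 UMIs the ratio was 1.79, under the limit of 2. The gene was concentrated in few cells: the 10% of macrophages with the most Igf1 UMIs held 95.3% of them in wild type and 77.0% in the other library. Macrophages that passed a gate on Folr2, Mrc1, Cd163, F13a1 and Lyve1, markers of resident tissue macrophages, were 26.1% and 25.4% of the class and held 89.8% and 86.9% of its Igf1 UMIs. Their Igf1 level was 94.95 and 197 CPM, against 4.20 and 13.4 CPM in the macrophages that did not pass. Of the class, 425 and 213 cells lay within 0.05 of the gate's threshold score of 0.5, on either side, beside 1244 and 1070 that passed. In the cluster led by Cd209f, Cd209d and Lyve1, Igf1 was 181 CPM in 437 wild-type cells and 223 CPM in 927 Has2-labelled cells. This was a smaller difference than over the gate. The level was higher in the Has2-labelled library in 5 of 6 macrophage clusters, but not always beyond counting error. The intervals were apart only in the Cd209f cluster and in the cluster led by Ppbp and Pf4 (31.3 and 49.8 CPM). In all other macrophage clusters they overlapped, with at most 31 Igf1 UMIs in a library. Cells with monocyte markers (Chil3, Ly6c2 and Plac8) had 7.11 and 5.41 CPM, and cells with the osteoclast markers Ctsk, Acp5 and Mmp9 had 13.2 and 11.3 CPM. The wild-type value of the osteoclast markers rested on 5 UMIs in 46 cells. Cells of the Arg1 gate had 9.82 and 21.7 CPM and cells of the MHC class II gate 7.53 and 16.7 CPM, higher in the Has2-labelled library.

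Endothelial cells held 8 Igf1 UMIs in wild type and 77 in the Has2-labelled library, 1.70 and 22.4 CPM (ratio 13.2, 6.37 to 31.6). The summed level of the 8 fibroblast markers in these cells was 68.0 and 163 CPM, with none of the markers at 0, and its part in the Igf1 difference was not tested. Neutrophils had 12 and 13 Igf1 UMIs, and keratinocytes had 0 in both libraries.

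Igf2, the second ligand and an imprinted gene that is high in the embryo, was close to the detection limit. It had 33 UMIs in all kept wild-type cells and 148 in the Has2-labelled ones. Fibroblasts gave 15 and 70 of these (0.314 and 1.19 CPM; ratio 3.78, 2.14 to 7.11), and pericytes or smooth muscle cells gave 1 and 28. Its imprinted neighbour H19, a noncoding RNA, had 93 and 1929 UMIs in fibroblasts, 1.95 and 32.7 CPM (ratio 16.8, 13.6 to 20.9). Without the 2 clusters named above the ratio of H19 was 1.24 (0.811 to 1.85), and that of Igf2 was 3.33 (1.498 to 7.45) on 14 and 15 UMIs. The H19 difference was thus not seen in the clusters that both libraries shared, and Igf2 was measured on few molecules.

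Igf1r, the receptor, was highest in neutrophils among the 5 compared classes. It reached 1514 CPM in wild-type neutrophils (31944 UMIs) and 1371 CPM in the Has2-labelled ones (16255 UMIs), a ratio of 0.905 (0.888 to 0.923). Neutrophils held 76.0% and 60.8% of all Igf1r UMIs of the kept cells. After thinning to 1000 UMIs, 62.6% and 58.7% of neutrophils had an Igf1r UMI, against 8.33% and 8.50% of fibroblasts and 7.26% and 7.99% of macrophages. The order of the classes was the same in both libraries: neutrophils were followed by T cells at 732 and 499 CPM, then by endothelial cells at 121 and 142, fibroblasts at 83.3 and 81.4, and macrophages at 77.4 and 77.0. The counting intervals of fibroblasts and macrophages overlapped in the Has2-labelled library and not in wild type.

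Between the libraries Igf1r was close to even in fibroblasts (ratio 0.977, 0.936 to 1.02) and macrophages (0.995, 0.945 to 1.05). Endothelial cells had a ratio of 1.18 (1.04 to 1.33). T cells were lower in the Has2-labelled library, with 739 and 258 UMIs and a ratio of 0.681 (0.589 to 0.786). Within neutrophils the level ran from 1148 to 1743 CPM over 6 clusters in wild type and from 1229 to 1635 CPM in the other library. The cluster led by Il23a, Cxcl1 and Tnf was lowest in both. In the Has2-labelled library its interval overlapped those of the clusters led by Ngp and by Rsad2. The Ngp cluster came mostly from wild type, with 2299 and 187 cells, and Igf1r was 1595 and 1258 CPM there. Its part in the neutrophil ratios was not tested, as clusters mostly from 1 library were left out for fibroblasts only. Igf1r was lower in the Has2-labelled library in 5 of the 6 neutrophil clusters. Of classes too small to compare, keratinocytes had 504 CPM in 21 wild-type cells and 277 CPM in 183 Has2-labelled cells, and mast cells or basophils had 785 CPM in 17 cells and 169 CPM in 38.

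The related receptors had other orders of classes. The insulin receptor gene Insr was highest in endothelial cells, at 109 and 107 CPM, and stood at 13.9 and 13.1 in fibroblasts, 8.56 and 11.2 in macrophages, 15.4 and 15.7 in neutrophils and 24.8 and 36.7 in T cells. Igf2r, which binds Igf2 and carries it to lysosomes, was 44.2 and 74.5 CPM in fibroblasts (ratio 1.69, 1.60 to 1.78, and 0.989 without the 2 clusters) and 86.7 and 115 CPM in neutrophils (1.33, 1.24 to 1.43). In macrophages it was 97.9 and 103 CPM, in endothelial cells 77.3 and 68.4, and in T cells 58.4 and 54.1.

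Igfbp2, a binding protein with an integrin-binding motif, showed the greatest contrast of the family. Wild-type fibroblasts held 2 of its UMIs and Has2-labelled fibroblasts held 1988, or 0.0419 and 33.7 CPM (ratio 805, 222 to 6649). No gene of the 12966 measured in fibroblasts had a higher ratio. The 2 wild-type UMIs were in 2 cells, while 158 of the 2315 Has2-labelled fibroblasts (6.83%) had at least 1, with a median of 7 and a maximum of 99 in a cell. The cell with the most held 4.98% of the UMIs, so the level did not rest on 1 cell. Of these 158 cells, 81.0% passed a gate on the myofibroblast markers Acta2, Tagln, Postn, Lrrc15 and Tnn, compared with 15.1% of the Has2-labelled fibroblasts without an Igfbp2 UMI.

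The myofibroblast gate was passed by 7 wild-type and 454 Has2-labelled fibroblasts, so the level of Igfbp2 in wild-type myofibroblasts could not be measured well. It was 0 CPM in those 7 cells, with an upper bound of 11.9 CPM, and 114 CPM in the 454. Has2-labelled fibroblasts with inflammatory markers (Il6, Lif, Csf3, Cxcl1 and Cxcl5) had 0.228 CPM and those passing neither gate 14.1 CPM. By cluster, the Tnn and Spp1 cluster had 98.8 CPM and the Clec3b and Sfrp2 cluster 0.6 CPM. Without these 2 clusters Igfbp2 had 2 and 6 UMIs (ratio 9.32, 1.67 to 94.5). Has2-labelled keratinocytes had 80 Igfbp2 UMIs, of which 1 cell held 73.8%, and wild-type keratinocytes had 0 in 21 cells. T cells had 0 UMIs in both libraries.

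**Figure D3:**
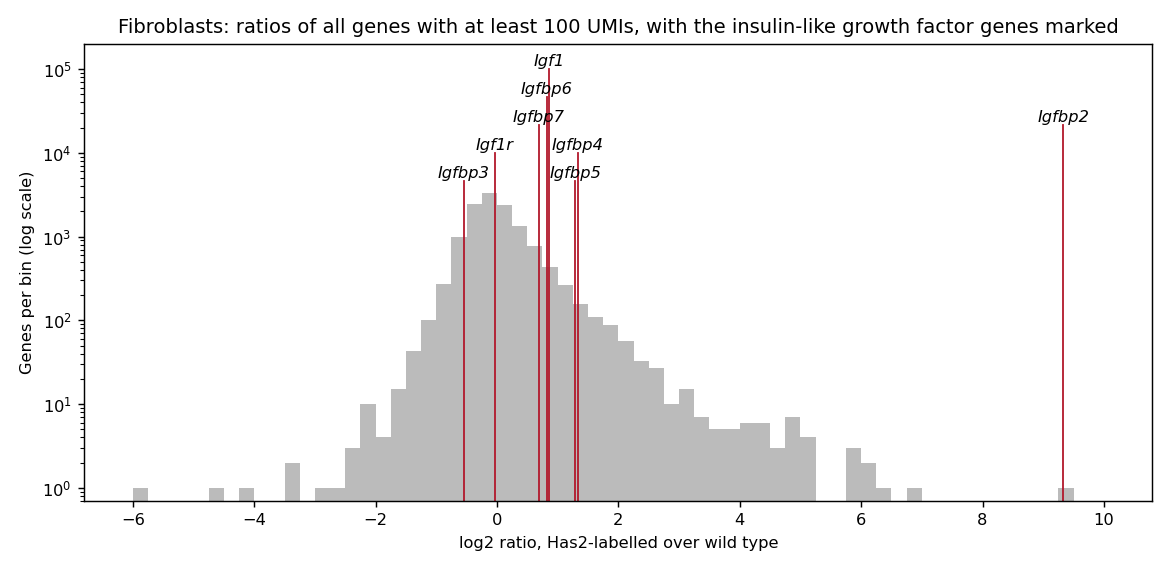
Distribution of log2 ratios (Has2-labelled over wild type, 0.5 added to each count) over all 12966 genes with at least 100 UMIs in fibroblasts, as genes per bin on a log scale, with the 8 measured insulin-like growth factor genes marked by red lines. Igfbp2 lies alone at the right, at 9.33, while Igf1r lies at -0.03, near the median of -0.06.

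Igfbp2 and Igfbp5 are neighbours on chromosome 1, with 0 annotated RefSeq genes between them. Their upstream sequences and that of Igfbp4, on chromosome 11, are shown because these were the 3 genes counted as higher in fibroblasts. Each is the 250 bases before a RefSeq start site (build GRCm38.p6, not the build of the counts), 5′ to 3′ on the strand of the gene. All 9 genes matched the table of promoters, and for Igfbp2 the more upstream of its start sites is shown. The Igfbp2 window is chr1:72824230-72824479 on the plus strand, the Igfbp4 window chr11:99040994-99041243 on the plus strand and the Igfbp5 window chr1:72874866-72875115 on the minus strand. Capitals mark GGGCGG in Igfbp2, TATAAA in Igfbp4 and CANNTG in Igfbp5, each searched on both strands.
Igfbp2: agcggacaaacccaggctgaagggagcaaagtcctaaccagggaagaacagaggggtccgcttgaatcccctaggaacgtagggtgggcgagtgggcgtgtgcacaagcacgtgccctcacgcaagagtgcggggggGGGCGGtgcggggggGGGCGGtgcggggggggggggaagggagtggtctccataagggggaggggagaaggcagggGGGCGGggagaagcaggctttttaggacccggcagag
Igfbp4: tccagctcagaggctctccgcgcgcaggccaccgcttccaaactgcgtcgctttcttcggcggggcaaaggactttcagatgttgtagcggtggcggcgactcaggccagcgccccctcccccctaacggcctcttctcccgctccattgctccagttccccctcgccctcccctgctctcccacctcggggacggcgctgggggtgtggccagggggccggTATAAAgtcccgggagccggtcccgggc
Igfbp5: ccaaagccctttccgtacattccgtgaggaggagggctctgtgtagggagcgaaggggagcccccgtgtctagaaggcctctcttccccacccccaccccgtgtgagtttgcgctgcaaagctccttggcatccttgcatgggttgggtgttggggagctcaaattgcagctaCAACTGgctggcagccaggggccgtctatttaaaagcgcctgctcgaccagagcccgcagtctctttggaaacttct
GGGCGG, the core bound by Sp1-type factors, occurred 3 times in the Igfbp2 window and 0 times in the other windows shown, and 32.7% of all 32851 RefSeq windows hold it. The Igfbp4 window held TATAAA, the TATA box core, once, with 22 bases between it and the start, and 12.4% of all windows hold that motif. All 3 windows held 1 CANNTG, the E-box core, as do 66.2% of windows with at least 1. The AP-1 motif TGANTCA was in none of the 3 windows shown and in 6.75% of all windows. The window of the other Igfbp2 start site held it once and held GGGCGG 0 times, so both differ with the start site chosen. GC content was 67.2% for Igfbp2, 69.2% for Igfbp4 and 58.8% for Igfbp5, against a median of 52.4%. These are descriptions of letters and say nothing of which factor binds.

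Igfbp4, a binding protein that restrains Igf1 and is cut by the protease Pappa, was 232 CPM in wild-type and 585 CPM in Has2-labelled fibroblasts (ratio 2.52, 2.47 to 2.57). Thinned to 1000 UMIs a cell, the ratio was 1.79, and as a mean over cells it was 1.47, both under the limit of 2. Without the 2 clusters named above it was 0.778 (0.746 to 0.812), from 228 and 177 CPM, so its direction was opposite there. The Clec3b and Sfrp2 cluster of the Has2-labelled library had 997 CPM. Macrophages had 32.9 and 65.2 CPM (ratio 1.98, 1.85 to 2.12), and 73.4% and 72.8% of these UMIs were in cells of the Folr2 gate, at 86.2 and 152 CPM. Igfbp4 and Igf1 were thus both concentrated in the same gate of macrophages. Endothelial cells had 125 and 98.1 CPM (ratio 0.787), a direction that turned when doublets were kept (1.08) or clusters were used as classes (1.03). Neutrophils had 3.03 and 3.96 CPM, below the T cells in wild type (7.93 CPM, 8 UMIs) and above them in the other library (1.93 CPM, 1 UMI), and no difference was read from these low levels.

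Igfbp5, which binds to extracellular matrix, was 80.9 CPM in wild-type and 198 CPM in Has2-labelled fibroblasts (ratio 2.45, 2.36 to 2.54). Its level was also higher in the clusters that both libraries shared, at 81.3 and 155 CPM (ratio 1.91, 1.81 to 2.01), and it was higher in each of the 5 fibroblast clusters. The wild-type level rested on 22 UMIs in the Tnn and Spp1 cluster and 52 in the Clec3b and Sfrp2 cluster. In the cluster led by S100a9 and S100a8, 70.1% of cells were of the fibroblast class. The share of cells with an Igfbp5 UMI was lower in the cluster led by Thbs4 and Cxcl14 (25.4% and 20.1%) and higher in the others. Fibroblasts passing neither gate had 137 and 277 CPM, those with inflammatory markers 57.8 and 81.6 CPM, and Has2-labelled myofibroblast-gated cells 189 CPM. Median depth of the cells passing neither gate was 3652 UMIs in wild type and 20259.5 in the other library. Pericytes or smooth muscle cells had 110 CPM in 37 wild-type cells and 614 CPM in 104 Has2-labelled cells, and 1 wild-type cell held 42.6% of the wild-type UMIs. Schwann cells had 39 UMIs (95.8 CPM, 38.5% from 1 cell) and 442 UMIs (911 CPM). T cells had 0 Igfbp5 UMIs in both libraries.

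Igfbp6, a binding protein that prefers Igf2, was higher in Has2-labelled fibroblasts and lower in the macrophages and neutrophils of the same library. In fibroblasts it was 240 and 423 CPM (ratio 1.76, 1.72 to 1.80). Without the 2 clusters named above it was 240 and 164 CPM (0.681, 0.651 to 0.711), the opposite direction. Has2-labelled fibroblasts passing neither gate had 569 CPM, those with inflammatory markers 367 and those with myofibroblast markers 207. In macrophages it was 57.3 and 25.1 CPM (2442 and 885 UMIs; ratio 0.438, 0.405 to 0.473). As a mean over cells the ratio was 0.505, just outside the limit of 0.5. Cells with monocyte markers had 97.9 and 60.4 CPM against 37.6 and 18.98 CPM in the remaining macrophages, an order seen in both libraries. By cluster, the Has2-labelled level was lower in 5 of 6, the exception being the Cd209f and Lyve1 cluster at 15.7 and 24.4 CPM. Neutrophils had 76.8 and 51.7 CPM (0.673, 0.612 to 0.739), far above the 1 and 2 UMIs of the T cells. The Has2-labelled level was lower in 5 of 6 neutrophil clusters. The part of the Ngp cluster, mostly from wild type, in the neutrophil ratio was not tested.

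Igfbp7, a low-affinity member found in vessel walls, was highest in pericytes or smooth muscle cells at 4178 and 7181 CPM and in endothelial cells at 4118 and 5962 CPM. The endothelial ratio was 1.45 (1.42 to 1.48), but 1.22 when thinned to 1000 UMIs and 1.14 as a mean over cells. Both vessel-wall classes were higher in the Has2-labelled library. The pericytes or smooth muscle cells, 37 in wild type, were too few to compare. Fibroblasts had 900 and 1454 CPM (ratio 1.62, 1.60 to 1.63), and 891 and 991 CPM without the 2 clusters (1.11, 1.09 to 1.13). Macrophages were counted as lower, at 7.81 and 3.48 CPM (ratio 0.446), but 1 wild-type cell held 52.9% of the wild-type UMIs. Without the cell with the most in each library the ratio was 0.845, and macrophages lay below the 14.9 and 13.5 CPM of T cells, so the value was read as background. Neutrophils, at 14.03 and 13.1 CPM, were at the T cell level too.

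Igfbp3, the main carrier of the ligands in blood, was lower in Has2-labelled endothelial cells. They had 502 CPM in wild type and 260 CPM in the other library (2362 and 894 UMIs; ratio 0.519, 0.480 to 0.560), just short of the limit. Thinned to 1000 UMIs the ratio was 0.442, past it. Endothelial cells with the venular markers Selp, Sele, Ackr1 and Vcam1 had 152 and 38.6 CPM, against 717 and 399 CPM in those without, so the order was the same in both libraries. The venular gate was passed by 47 wild-type and 71 Has2-labelled cells, 21.2% and 36.4% of the class. The part of this difference in the class ratio was not tested. In fibroblasts Igfbp3 was 113 and 77.1 CPM (0.683, 0.656 to 0.710), and 114 in both libraries without the 2 clusters (1.002, 0.949 to 1.06). Keratinocytes had 41.1 and 75.8 CPM from 16 and 338 UMIs.

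**Figure D4:**
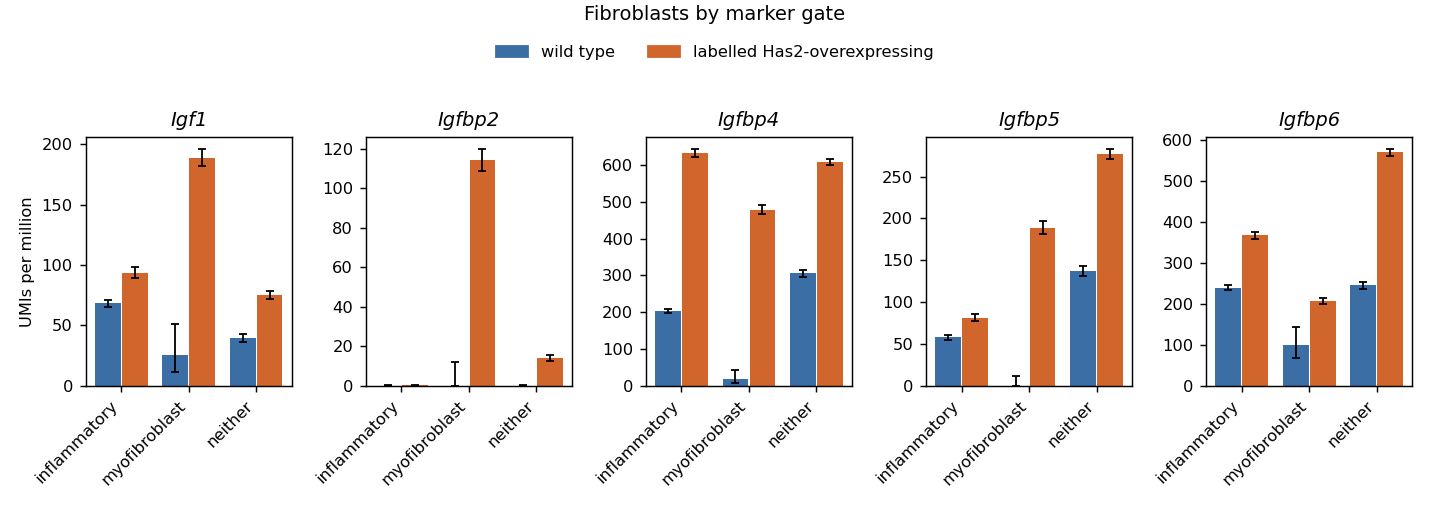
Levels (CPM) of 5 genes in fibroblasts split by marker gates, wild type in blue and Has2-labelled in orange, with exact Poisson 95% intervals; the wild-type myofibroblast bar rests on 7 cells. Igfbp2 is highest in Has2-labelled myofibroblast-gated cells at 114, against 14.1 in those passing neither gate, while Igfbp5 and Igfbp6 are highest in Has2-labelled cells passing neither gate, at 277 and 569.

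**Figure D5:**
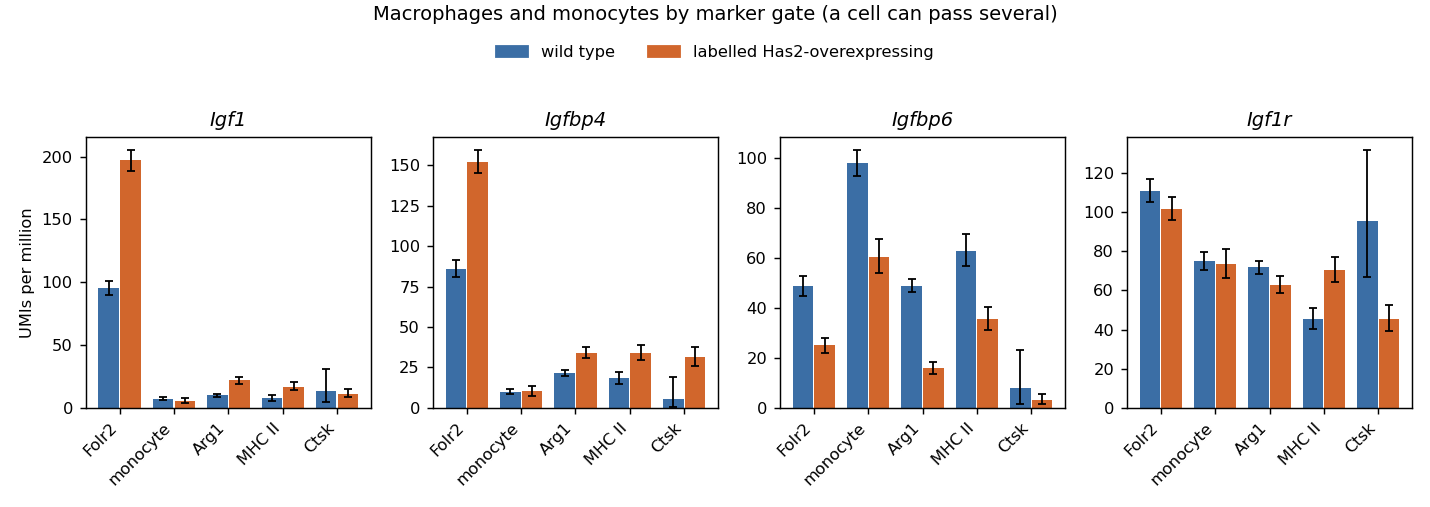
Levels (CPM) of 4 genes in macrophages or monocytes by marker gate, wild type in blue and Has2-labelled in orange, with exact Poisson 95% intervals; a cell can pass several gates. Igf1 and Igfbp4 are highest in the Folr2 gate (94.95 and 197, and 86.2 and 152), Igfbp6 in the monocyte gate.

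Counted per cell at 1000 UMIs, fibroblasts had UMIs of 1.06 of the 6 binding proteins on average in wild type and 1.49 in the Has2-labelled library. The share with 3 or more was 5.73% and 15.8%. Endothelial cells had 1.19 and 1.19, and 90.5% and 93.1% of them had an Igfbp7 UMI, while macrophages (0.0902 and 0.0899) and neutrophils (0.0849 and 0.0652) seldom had any.

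The other 79 genes of the pathway were taken as 6 lists, and a gene was measured at 20 UMIs or more. Their counts are to be read beside the share of all genes that were higher in the Has2-labelled library, which was 48.5% in fibroblasts, 57.1% in macrophages, 45.5% in neutrophils, 47.4% in T cells and 51.2% in endothelial cells. In fibroblasts they are also to be read beside the values without the 2 clusters named above, which held 1621 of the 2315 Has2-labelled fibroblasts. Of the other binding proteins and ternary complex genes, 6 of 8 measured were higher in Has2-labelled fibroblasts and 2 lower (median log2 ratio 0.75, beside -0.02 for all 16555 genes). Ccn3, a matricellular protein, was 11.2 and 56.1 CPM (ratio 4.99, 4.56 to 5.48). Htra1, a secreted protease, was 80.2 and 170 CPM (2.12), and Htra3 was 223 and 440 CPM (1.98). Without the 2 clusters 0 of the 8 were higher, with ratios of 0.878 for Ccn3, 0.783 for Htra1 and 0.912 for Htra3, so the direction was opposite. In endothelial cells all 5 measured genes of this list were at least 2-fold higher (median 1.45, beside 0.01 for all genes), which 4.74% of 11255 genes were. They included Esm1, a marker of sprouting vessel tips, at 9.35 and 44.0 CPM, Ccn1 at 80.3 and 219 CPM, and Ccn2 at 69.9 and 223 CPM. The fibroblast markers summed to 68.0 and 163 CPM in the same endothelial cells, and their part in these values was not tested. Macrophage Htra1 was 1.69 and 6.99 CPM (ratio 4.14).

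Of the proteases that cut binding proteins and their inhibitors, 8 of 12 measured in fibroblasts were higher and 4 lower (median 0.41). The pappalysins, proteases that cut binding proteins, went in opposite directions: Pappa was 19.9 and 44.1 CPM (ratio 2.21, 2.06 to 2.39) and Pappa2 was 27.2 and 6.16 CPM (0.226, 0.201 to 0.254). Stc1, a stanniocalcin of the family that inhibits pappalysins, was 12.9 and 6.99 CPM (0.543). Without the 2 clusters 4 of the 12 were higher and 8 lower: Pappa was then lower (0.629, 0.536 to 0.736), Pappa2 was still lower (0.448) and the interval of Stc1 included 1 (1.17, 0.998 to 1.36). In endothelial cells Adam12 was 17.0 and 51.2 CPM, Mmp2 23.2 and 62.9 and Prss23 458 and 807, and 7 of 10 measured were higher, in cells whose fibroblast markers also differed as given above. In macrophages 5 of 8 were higher, near the share of all genes, and Plau and Mmp14 had ratios of 1.45 and 1.18. Mmp3 had 3.45 and 0.963 CPM there, below the 5.36 and 4.13 CPM of neutrophils and far below the 1324 and 963 CPM of fibroblasts, and was read as background. Plau, the urokinase gene, was 36.0 and 132 CPM in neutrophils (3.67, 3.36 to 4.01), where 4 of 8 were higher. Adam12 was 186 and 101 CPM in T cells.

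Receptor signalling genes were split almost evenly in fibroblasts, with 13 higher and 14 lower (median -0.004). Foxo3, a transcription factor that the pathway restrains, was 23.0 and 32.0 CPM, its relative Foxo1 20.7 and 14.7, and the receptor adaptor Irs1 3.04 and 4.66. With the 2 clusters left out, 14 were higher and 13 lower, and the ratio was 1.21 for Foxo3, 0.881 for Foxo1 and 0.441 for Irs1, of which Irs1 turned. In macrophages 15 of 25 were higher, near the share of all genes, with Pik3r1 at 67.9 and 92.5 CPM and Rictor at 45.7 and 35.2. In endothelial cells 19 of 24 were higher (median 0.19), with the phosphatase gene Ptpn1 at 73.3 and 135 CPM. In neutrophils 17 of 25 were lower (median -0.31), with Foxo1 at 4.17 and 2.11 CPM, and in T cells 11 of 20 were lower, with Rictor at 144 and 94.7 CPM.

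Among growth hormone axis genes, which act upstream of Igf1 in liver, 3 of 7 were higher in fibroblasts and 4 lower. The receptor gene Ghr was 88.6 and 147 CPM there (ratio 1.66), and the transcription factor gene Stat5a 73.5 and 37.3 CPM (0.508). In the clusters that remained without these 2, 1 of 7 was higher, and the ratios were 0.454 for Ghr, which turned, and 0.747 for Stat5a. In macrophages Ghr had 52 and 295 UMIs, 1.22 and 8.35 CPM (6.85, 5.09 to 9.39), beside 1.47 and 0.590 CPM in neutrophils, while 6 of 7 genes were lower, with Jak2 at 162 and 62.9 CPM and Cish at 34.9 and 16.5. Endothelial Socs3, a feedback inhibitor of cytokine receptors, was 99.01 and 242 CPM, with 5 of 7 higher. Of the FoxO target genes, 8 of 13 were higher in fibroblasts (median 0.17), with Pik3ip1 at 1.19 and 4.26 CPM, and 8 of 13 without the 2 clusters (median 0.13), where the ratio of Pik3ip1 was 1.58 (0.948 to 2.59). The count was 9 of 12 in endothelial cells (median 0.39). The macrophage count was 4 of 11, with Cited2 at 100 and 195 CPM, and T cell Txnip was 63.4 and 135 CPM.

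Genes most like each member were sought by Pearson correlation of log2 levels over 15 library-by-class points, which share libraries and depth, among 12192 genes. For Igf1 the closest were Gas6 (0.940), Cfb (0.905) and Bdh2 (0.895), and for Igf1r they were Smad3 (0.947), Tmem154 (0.933) and Smpd5 (0.920). Igfbp2 was closest to Col7a1 (0.919), Bmp3 (0.914) and Slc1a3 (0.901), and Igfbp3 to Slco2a1 (0.983), Dctd (0.967) and Bdkrb2 (0.957). The highest Igfbp2 levels were in Has2-labelled fibroblasts and keratinocytes, and keratinocytes entered from that library only. Most of their Igfbp2 UMIs came from a single cell, which limits the values for Igfbp2. Igfbp4 was closest to Vkorc1 (0.961), Fgfr1 (0.956) and Galk1 (0.952), and Igfbp5 to Postn (0.985), Itih5 (0.977) and Arhgef25 (0.970). For Igfbp6 they were C3 (0.933), Saa3 (0.909) and Ifit1 (0.883), and for Igfbp7 Prss23 (0.990), Pcdhb17 (0.984) and Lamb1 (0.983). Igf2 had too few UMIs for this measure.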

How the data were processed

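Cells of skin digested with dispase, accutase and collagenase were captured with a 10x 5' kit, per the labels' protocols. The authors deposited raw UMI counts per gene and cell, and the submitters' processing notes name Cell Ranger 9.0.1 and the build GRCm39. Cells with under 200 genes or over 15% mitochondrial UMIs were left out (137 and 25 in wild type, 150 and 57 in the Has2-labelled library). Scrublet's own threshold marked 1.46% and 0% of cells, so the highest scores up to the expected share were removed instead (1155 and 852 cells). A cell took the class with the best marker score, if at least 3 markers were detected and the score led by 0.05. Subset gates needed a score of 0.5. The thresholds were set after the counts were seen; cells with no class numbered 1354 and 834. Counts were summed per library and class, with exact Poisson and Clopper-Pearson intervals. Cells were clustered with scanpy 1.11.5 (3000 variable genes, 30 components, 15 neighbours). The ratio rule was tested on simulated data. The genes and lists were chosen with earlier results of these data known. All members were named, with the 3 largest ratios per list and class among genes with at least 100 UMIs; 1 of these is not reported here. Thinning to 1000 UMIs left out 1064 and 709 shallower cells.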

Additional observations from a re-analysis of the deposited data

Results flagged for a closer look

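For 2 genes the ratio of the Has2-labelled library over wild type lay on opposite sides of 1 in different cell classes. Igfbp6 had a ratio of 1.76 in fibroblasts and 0.438 in macrophages or monocytes, but without the 2 fibroblast clusters mostly from 1 library the fibroblast ratio was 0.681, on the same side as macrophages. Igfbp7 had a ratio of 1.62 in fibroblasts and 0.446 in macrophages or monocytes, where 1 wild-type cell held 52.9% of its UMIs. The macrophage ratio of Igfbp7 was 1.17 with a stricter gate margin and 1.41 with cluster classes, and the level there was read as background. With 1 library per genotype the difference between classes was not tested.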

How the results depend on the processing

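Each of 22 ratios was recomputed under up to 11 settings. Of 175 values for the 18 ratios whose interval excluded 1, 8 lay on the other side of 1, and of 38 values for the other 4 ratios, 10 did. Those 4 ranged from 0.897 to 1.12 (fibroblast Igf1r), 0.932 to 1.12 (macrophage Igf1r), 0.944 to 1.70 (neutrophil Igfbp4) and 0.853 to 1.51 (neutrophil Igfbp7). Without fibroblast clusters mostly from 1 library, a setting added after the data were seen, fibroblast ratios turned for Igf1 (0.554), Igfbp4 (0.778) and Igfbp6 (0.681). That of Igfbp3 went from 0.683 to even (1.002, 0.949 to 1.06), which is among the 8 values above. In that setting, of the 3 genes counted as higher, only Igfbp2 kept a ratio of at least 2, on 2 and 6 UMIs. That is under the limit of 100 UMIs, so none of the 9 genes met the full rule in the remaining fibroblasts. The list genes named for fibroblasts also have this setting beside them. Macrophage Igfbp7 turned with cluster classes (1.41) and a stricter gate margin (1.17), and endothelial Igfbp4 with doublets kept (1.08) and cluster classes (1.03). At a fold of 1.5, 6 genes were higher in fibroblasts (13.2% of all genes were) and 2 in macrophages (12.8%), and 1 was lower in endothelial cells (5.66%). The fibroblast count of 3 was 2 as a mean over cells and after thinning. The count after thinning includes Igfbp2, which had no wild-type UMI left, so only Igfbp5 had a thinned ratio above 2 (2.20). In macrophages the count of genes at least 2-fold higher (1) was 2 as a mean over cells and 0 after thinning to 1000 UMIs. The count at least 2-fold lower there (2) was 1 with cluster classes, after thinning or without the cell with the most UMIs, and 0 as a mean over cells. At 20 UMIs or more, 4 genes were higher in fibroblasts (9.89% of all genes were), 1 in neutrophils (4.96%) and 2 in endothelial cells (4.82%), and 3 were lower in macrophages (2.76%). In endothelial cells 1 gene was lower with cluster classes, as a mean over cells or after thinning. The cause of these changes was not tested. Beyond the main rule, shares over all genes were computed only for the fold of 1.5 and the limit of 20 UMIs. The counts under the other settings thus have no background beside them. No thinned ratio exists for fibroblast Igfbp2, which had 0 wild-type UMIs left. No paired analysis was possible because each genotype has 1 library. Classes under 100 cells and genes with few UMIs, Igf2 above all, limit what can be read.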
